A study of Mus musculus with 8 samples.

Results

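Integrins are the receptors through which cells hold on to the extracellular matrix. Each is a pair of an alpha and a beta chain, and the pairing sets the ligand: collagens, laminins, fibronectin and other proteins with an RGD motif, or counter-receptors on other cells. Laminins are cross-shaped trimers of an alpha, a beta and a gamma chain that form the scaffold of basement membranes and are themselves integrin ligands. In bone marrow stroma these molecules anchor mesenchymal stem cells (MSCs) to their niche and carry signals from the matrix to the cytoskeleton. The genes described here are the mouse genes whose symbols begin with Itga or Itgb, leaving out integrin-binding proteins and pseudogenes, together with the laminin alpha, beta and gamma chain genes. The rule found 39 genes among the 53465 identifiers in the count table, of which 28 were integrin genes, including the integrin-beta-like gene Itgbl1, and 11 were laminin genes.

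RNA was sequenced from bone MSCs at 2 oxygen levels. The hypoxia group held 4 samples grown at 2% oxygen and the normoxia group 4 samples grown at 21% oxygen, both with 5% CO2. Per the study's methods the cells came from bone chips of wild-type male C57BL/6N mice, and per the labels the mice were 3 to 5 months old and cells were sorted on day 12. The gate was CD45-/TER-119-/CD140a+/Sca-1+ in all samples. Per the study, one sorted population was divided between the oxygen levels, after the bone chips themselves had been kept in hypoxia. The labels describe both cultures ahead of the sort, so the sources differ on this order. The comparison asked how the oxygen level in culture alters these MSCs. Nothing in the sources ties a sample number to a named animal, so the p-values measure the spread between these cultures.

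Total counts ran from 12898291 to 25132141 per sample, with hypoxia sample 1 the deepest, and the integrin and laminin genes took 0.405% to 0.501% of them. Pdgfra and Ly6a, which encode the CD140a and Sca-1 used for sorting, were counted in all samples (1928 to 4011 and 4636 to 11995 reads). Of 10 MSC markers 4 changed, where 34.6% of all genes did. Cd44 (log2 change 0.72) and Nt5e (0.59) were higher in normoxia, and Eng (-0.27) and Col1a1 (-0.74) lower. With the replicate number as a block 9 of the 10 passed, where 46% of all genes did. All 5 erythroid markers were at 0 in every sample, and the 6 epithelial markers together stayed at or under 0.462 CPM (counts scaled to the library total). The 10 markers of macrophages and other blood cells were all detected, at a summed 603 to 1280 CPM in hypoxia and 672 to 1290 CPM in normoxia, although CD45+ cells were gated out. Lyz2 alone held 261 to 436 CPM of these sums in hypoxia and 400 to 691 CPM in normoxia. Of the 10 blood cell markers, Lyz2 was higher and Laptm5 lower in normoxia, and 8 had changes below 0. With the replicate number as a block 7 passed, 1 higher and 6 lower. In bulk RNA, fewer cells of a type and less RNA per cell cannot be told apart.

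Of the 39 genes, 35 passed the filter on low counts. The other 4 had too few reads to test: Itgad (0 to 4 reads per sample), Itgae (0 to 5), Itgb6, an epithelial beta chain (0 to 12), and Itgb2l (0 in every sample). For the gene at 0, a count of 0 allows up to 0.119 to 0.233 CPM of the unscaled total, depending on the sample, and this limit covers counting error only. In limma-trend, with p-values adjusted by Benjamini-Hochberg over all 14369 tested genes and a threshold of 0.05, 13 of the 35 changed between the oxygen levels. That is 37.1%, close to the 34.6% of all tested genes that passed the same test. Of the 35, 3 were higher in normoxia (18% of all genes tested) and 10 were lower (16.5%). A call together with an absolute log2 change of 0.5 or more was seen in 9 of the 35 (12.8% of all genes tested). In 10 of the 35 genes the 4 values of one group did not overlap with those of the other, a pattern held by 32.6% of all genes. With samples scaled by total counts alone, 14 passed, 7 in each direction, where 36.1% of all genes did (25.1% higher and 11% lower).

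The median log2 change of the 35 genes was 0.01, beside 0.00 for all genes tested. Their median absolute change was 0.32, beside 0.24. Throughout, a positive change means a higher level at 21% than at 2% oxygen. Sample numbers were taken to pair the 2 groups, which rests on correlations in these same data and on no label. With the replicate number as a block, 21 of the 35 genes passed, 8 higher and 13 lower, where 46% of all genes did (23.3% higher and 22.7% lower). With the block and a correction for GC content and transcript length 23 passed, 10 higher and 13 lower, where 43.3% of all genes did. The 8 additional genes were Itga6, Itga7, Itga11, Itgb7 and Lama4 with values above 0 and Itgam, Itgb5 and Itgbl1 with values below 0. The call for Itgb5 did not hold with that correction (log2 change 0.02, adjusted p = 0.76). Without hypoxia sample 1, the deepest, 20 genes passed, 7 higher and 13 lower, where 37.1% of all genes did (19.5% higher and 17.6% lower).

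**Figure D1:**
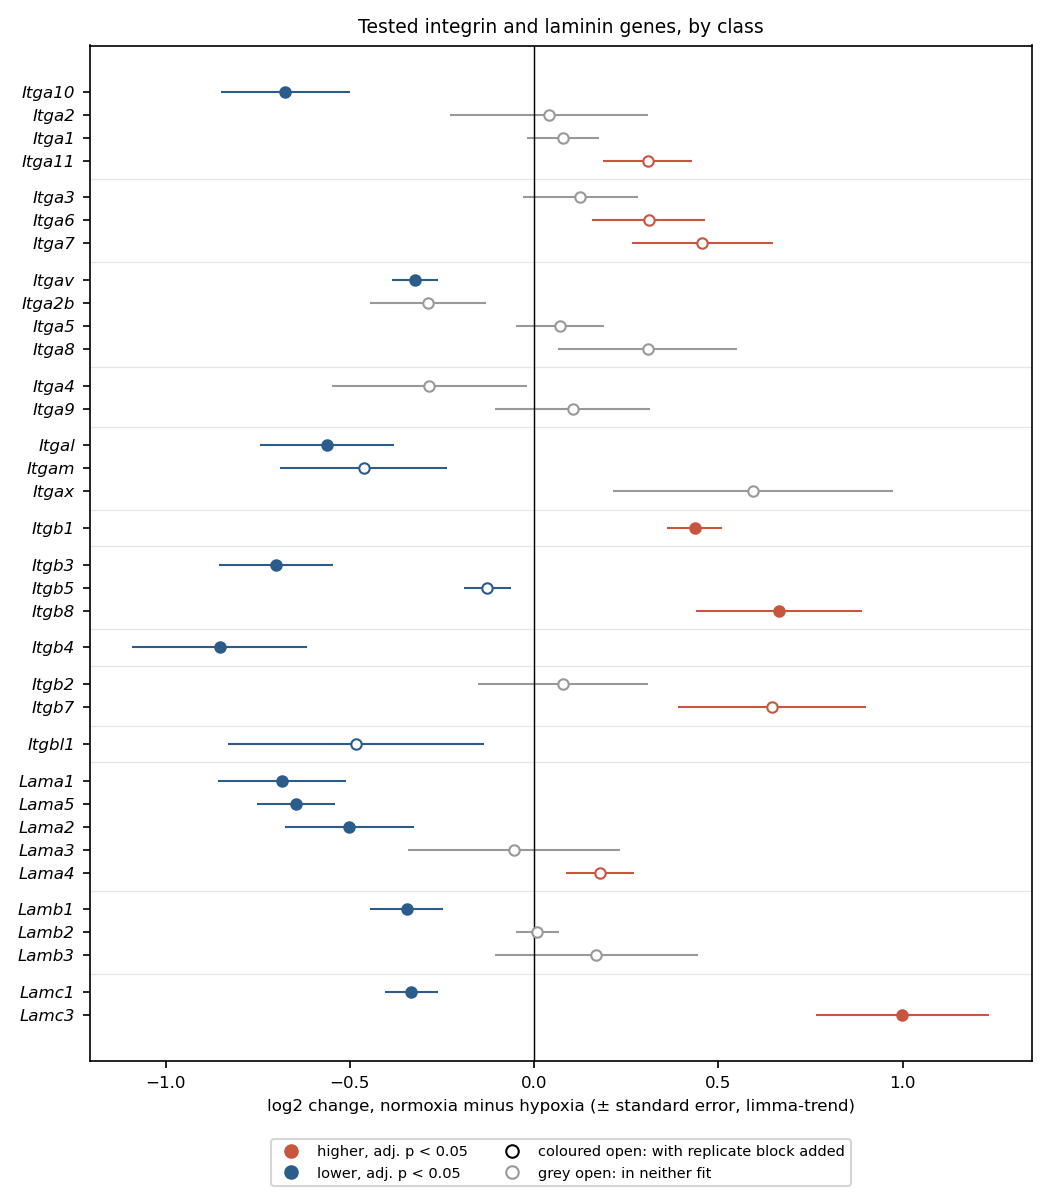
Log2 change (normoxia minus hypoxia, ± standard error from limma-trend) of 34 of the 35 tested genes, one row per gene, with grey lines parting the classes from collagen-binding alpha chains (top) to laminin gamma chains (bottom). Filled points are the 13 genes with an adjusted p under 0.05 and coloured open points the 8 that passed with the replicate block added, of which Itgb5 moved to a value above 0 under GC correction; the lowest value is that of Itgb4 and the highest that of Lamc3.

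Among the abundant integrin chains, Itgb1 and Itgav passed the test, in opposite directions. Itgb1, the beta chain shared by most matrix-binding integrins (ENSMUSG00000025809, GRCm38 chr8:128685654-128733200), had log2 CPM of 10.16, 10.18, 9.93 and 9.99 in hypoxia samples 1 to 4 and of 10.60, 10.49, 10.44 and 10.48 in normoxia samples 1 to 4. Every normoxia sample lay above every hypoxia sample. The level rose by 0.44 ± 0.0747 (standard error) on the log2 scale, or 1.35-fold, with an adjusted p of 0.001. With correction for GC content and length the rise was 0.28. Per kilobase of exon it was the most abundant of all integrin chains, at 263 ± 22.8 CPM in hypoxia and 355 ± 17.3 CPM in normoxia (SD, n = 4).

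Itgav, the alpha chain that pairs with several beta chains to bind vitronectin, osteopontin and latent TGF-beta (ENSMUSG00000027087, chr2:83724397-83806916), went the other way. Its log2 CPM was 8.54, 8.71, 8.62 and 8.45 in hypoxia and 8.22, 8.25, 8.3 and 8.26 in normoxia, without overlap. It was 1.25-fold lower in normoxia (log2 change -0.32 ± 0.0627, adjusted p = 0.0021), and the change was -0.50 with GC and length correction. Its beta partners Itgb3, Itgb5 and Itgb8 did not move together.

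Itgb3, the beta chain of the classical vitronectin receptor (ENSMUSG00000020689, chr11:104608000-104670476), fell with Itgav. Hypoxia samples had log2 CPM of 2.97, 3.68, 3.14 and 3.10, and normoxia samples 2.39, 2.59, 2.6 and 2.49. The groups did not overlap, and normoxia was 1.63-fold lower (-0.70 ± 0.155, adjusted p = 0.0044) at 68 to 182 reads per sample. Of 3 tested megakaryocyte markers Gp1bb was lower (-0.74, adjusted p = 0.033), while Pf4 (-0.57) and Ppbp (1.05) did not pass. With the block all 3 passed. Their part in the Itgb3 values was not tested. Itgb8, whose pair with alphav activates latent TGF-beta (ENSMUSG00000025321, chr12:119158022-119238802), moved upward at 16 to 56 reads per sample. It had log2 CPM of 1.17, 1.20, 0.94 and 0.52 in hypoxia and 1.70, 1.41, 2.09 and 1.30 in normoxia. The groups did not overlap and the rise was 1.59-fold (0.67 ± 0.226, adjusted p = 0.038). This call did not hold under GC and length correction (adjusted p = 0.14, and 0.058 with the block as well), with no filter on low counts (0.096), in limma-voom (0.052), or without any one of hypoxia samples 3 and 4 and normoxia samples 1 and 3 (adjusted p up to 0.12). Over all alternatives its adjusted p ran from 0.0082 to 0.14.

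Itgb5, the far more abundant partner of alphav (ENSMUSG00000022817), had log2 CPM of 8.78, 9.03, 8.96 and 8.93 in hypoxia and 8.73, 8.80, 8.86 and 8.80 in normoxia. The groups overlapped, although the value was lower in normoxia in 4 of 4 sample pairs. The change of -0.13 did not pass (adjusted p = 0.14, 95% interval -0.27 to 0.01).

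**Figure D2:**
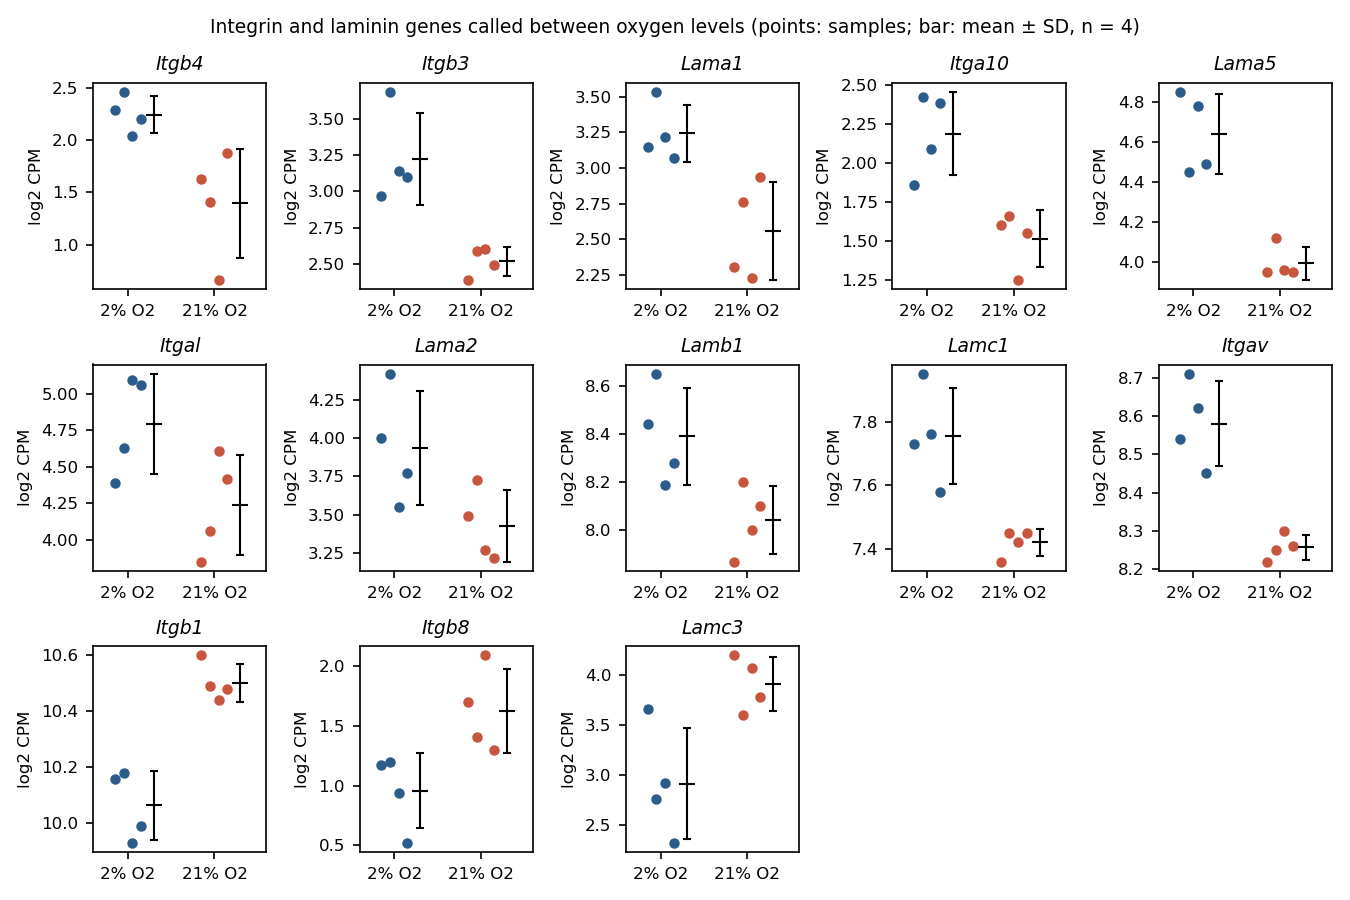
Log2 CPM (y axes, each panel with its own range) of the 13 integrin and laminin genes that passed the test, for the 4 samples at 2% oxygen (blue) and the 4 at 21% oxygen (red), with the mean ± SD beside the points. The groups overlap in Itgal, Lama2 and Lamb1 among the lower genes and, through hypoxia sample 1, in Lamc3, and in no other panel.

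Across the alpha chains, the collagen-binding group held both a rare gene that fell and the most abundant alpha chain of the data. Itga11, the alpha chain of a fibrillar collagen receptor of mesenchymal cells (ENSMUSG00000032243, chr9:62677826-62783982), had log2 CPM of 9.22, 9.42, 8.94 and 8.76 in hypoxia and 9.31, 9.56, 9.38 and 9.32 in normoxia. It was higher in normoxia in 4 of 4 pairs, but the groups overlapped. Its change of 0.31 ± 0.121 missed the threshold (adjusted p = 0.066) and passed with the block (adjusted p = 0.00027).

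Itga10, a collagen receptor chain best known from cartilage (ENSMUSG00000090210, chr3:96645584-96664519), was counted at 30 to 82 reads per sample. Log2 CPM was 1.86, 2.42, 2.09 and 2.38 in hypoxia and 1.6, 1.66, 1.25 and 1.55 in normoxia. All normoxia samples were below all hypoxia samples, by 1.6-fold (-0.68 ± 0.175, adjusted p = 0.011). In the annotation 33.5% of its exon bases also belong to the model Gm42957, which had at most 1 read in a sample. How reads in such shared bases were treated is not given in the sources used here. The collagen-binding chains Itga1 and Itga2 did not pass (log2 changes 0.08 and 0.04, adjusted p = 0.57 and 0.92).

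The laminin-binding chains Itga3, Itga6 and Itga7 had changes of 0.13, 0.31 and 0.46, and none of the 3 passed (adjusted p = 0.58, 0.14 and 0.085). Itga6 and Itga7 passed with the block (adjusted p = 0.00085 and 0.0023). With GC and length correction alone Itga7 passed (adjusted p = 0.033). With the block and that correction together all 3 passed, Itga3 at a change of 0.28 (adjusted p = 0.00011). Each of the 3 was higher in normoxia in 4 of 4 pairs.

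Itga5, the fibronectin receptor chain and the second alpha chain per kilobase of exon (ENSMUSG00000000555, chr15:103344286-103366763), had log2 CPM of 7.87, 7.33, 7.46 and 7.17 in hypoxia and 7.58, 7.48, 7.61 and 7.43 in normoxia. Hypoxia sample 1 was above every normoxia sample, hypoxia samples 2 and 4 were below all of them, and the change did not pass (0.07 ± 0.118, adjusted p = 0.69, interval -0.19 to 0.33). Without hypoxia sample 1 the change was 0.21 (adjusted p = 0.044), and over all alternatives the adjusted p ran from 0.0035 to 0.9. The remaining RGD-binding chains Itga8 and Itga2b, the platelet chain, had changes of 0.31 and -0.29, and Itga4 and Itga9, which bind VCAM-1 and tenascin among others, had -0.28 and 0.10. None of these 4 passed (adjusted p between 0.18 and 0.74).

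Itgb4, which pairs with alpha6 to bind laminin in epithelial hemidesmosomes (ENSMUSG00000020758, chr11:115974709-116008412), had the lowest log2 change of the 35 genes at 19 to 112 reads per sample. Hypoxia samples had log2 CPM of 2.29, 2.46, 2.04 and 2.2, and normoxia samples 1.63, 1.41, 0.66 and 1.88. The groups did not overlap, normoxia sample 3 being the lowest by far, and the fall was 1.81-fold (-0.85 ± 0.237, adjusted p = 0.015). Under GC and length correction alone the adjusted p was 0.058, the highest over all alternatives, of which the lowest was 0.00044. The epithelial markers Epcam, Krt8, Krt18, Krt5 and Krt14 had 0 to 2 reads in every sample and Cdh1 0 to 6.

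Among the leukocyte integrins, Itgb2 and Itgal had the most reads (327 to 762 and 192 to 498 per sample). Itgal, the alpha chain of LFA-1 (ENSMUSG00000030830, chr7:127296260-127335138), had log2 CPM of 4.39, 4.63, 5.10 and 5.06 in hypoxia and 3.85, 4.06, 4.61 and 4.42 in normoxia. The groups overlapped, but the value was lower in normoxia in 4 of 4 pairs, by 1.48-fold (-0.56 ± 0.182, adjusted p = 0.031). The call did not hold with total-count scaling, limma-voom or GC correction (adjusted p = 0.055 for the last), or without any one of hypoxia samples 3 and 4 and normoxia samples 1 and 2. Its adjusted p ran from 2.2e-06 to 0.1 over all alternatives.

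Its beta partner Itgb2 did not follow: log2 CPM was 4.58, 5.09, 5.50 and 5.28 in hypoxia and 4.61, 5.01, 5.79 and 5.36 in normoxia. In both groups sample 1 was lowest and sample 3 highest, and the change of 0.08 did not pass (adjusted p = 0.82, interval -0.42 to 0.58). Itgam, the macrophage chain of Mac-1, had a change of -0.46 (adjusted p = 0.14, 0.0011 with the block), with 68.7% of its exon bases shared with the model Gm49368, which had 0 reads. Itgax, another myeloid chain, had 1 to 7 reads per sample (adjusted p = 0.25). Itgb7, a beta chain of lymphocyte homing receptors, was higher in every normoxia than in every hypoxia sample at 14 to 62 reads (0.65, adjusted p = 0.068, and 0.01 with the block). The pan-leukocyte marker Ptprc had 140 to 263 reads per sample and a change of 0.08 (adjusted p = 0.81). Of the 10 blood cell markers 8 had changes below 0. Laptm5 was at -0.91, Csf1r at -0.59, Fcer1g at -0.56, Coro1a at -0.54, Tyrobp at -0.32 and Cd68 at -0.28, all 6 lower with the block, whereas Lyz2 was at 0.56. The part of blood cells in the values of these integrins was not tested. Itgbl1, a secreted protein with integrin-beta-like repeats, had a change of -0.48 (adjusted p = 0.31, and 0.00013 with the block).

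Of the 11 laminin genes 6 changed, 5 of them lower in normoxia, where 34.6% of all genes changed and 16.5% were lower. Lama5, a broadly expressed alpha chain of adult basement membranes (ENSMUSG00000015647, chr2:180176373-180225859), had log2 CPM of 4.85, 4.45, 4.78 and 4.49 in hypoxia and 3.95, 4.12, 3.96 and 3.95 in normoxia. The groups were well apart, and the fall was 1.57-fold (-0.65 ± 0.105, adjusted p = 0.00075). With GC and length correction the change was -0.41. Lama1, the alpha chain of the embryonic laminin (ENSMUSG00000032796, chr17:67697259-67822647), had log2 CPM of 3.15, 3.53, 3.22 and 3.07 in hypoxia and 2.31, 2.76, 2.23 and 2.94 in normoxia. Again no sample overlapped, and the fall was 1.61-fold (-0.68 ± 0.173, adjusted p = 0.0094) at 62 to 208 reads.

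Lama2, the alpha chain of muscle and nerve basement membranes (ENSMUSG00000019899, chr10:26980036-27619758), had log2 CPM of 4.00, 4.42, 3.55 and 3.77 in hypoxia and 3.49, 3.73, 3.27 and 3.22 in normoxia. The groups overlapped, with a lower value in normoxia in 4 of 4 pairs and a 1.42-fold fall (-0.50 ± 0.175, adjusted p = 0.043). This call did not hold with total-count scaling, with no filter, or without any one of hypoxia samples 1, 2 and 4 and normoxia samples 1, 3 and 4 (adjusted p up to 0.11). Over all alternatives the adjusted p ran from 4.1e-05 to 0.11.

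Lama4, the alpha chain of vascular and mesenchymal laminins and by far the most abundant alpha chain here (ENSMUSG00000019846), did not share this fall. Its log2 CPM was 7.08, 7.26, 6.86 and 6.88 in hypoxia and 7.02, 7.32, 7.22 and 7.25 in normoxia. The groups overlapped, and the change of 0.18 ± 0.0923 did not pass (adjusted p = 0.16), but did with the block (0.023). Lama3, an epithelial chain, had 6 to 19 reads per sample (adjusted p = 0.9).

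Lamb1, the beta chain of many developmental and adult laminins (ENSMUSG00000002900, chr12:31265234-31329644), had log2 CPM of 8.44, 8.65, 8.19 and 8.28 in hypoxia and 7.87, 8.20, 8.0 and 8.10 in normoxia. Normoxia sample 2 lay just above hypoxia sample 3, and all 4 pairs were lower in normoxia. The fall was 1.27-fold (-0.35 ± 0.0991, adjusted p = 0.018), and with total-count scaling the adjusted p was 0.055. Lamb2, the beta chain of synaptic and vascular laminins (ENSMUSG00000052911), was at 8.92, 9.07, 9.06 and 8.91 in hypoxia and 8.97, 9.05, 9.0 and 8.98 in normoxia. The groups overlapped in full (0.01 ± 0.059, adjusted p = 0.93), with an interval of -0.12 to 0.14. With GC and length correction its change was 0.18 and passed (adjusted p = 0.013), and the adjusted p over all alternatives ran from 0.00074 to 0.99.

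Lamc1 and Lamc3, both gamma chains, moved in opposite directions. Lamc1, the gamma chain of most laminins (ENSMUSG00000026478, chr1:153218922-153332786), had log2 CPM of 7.73, 7.95, 7.76 and 7.58 in hypoxia and 7.36, 7.45, 7.42 and 7.45 in normoxia. Every normoxia sample was lower, by 1.26-fold (-0.33 ± 0.0723, adjusted p = 0.004). Lamc3, a rarer gamma chain known from brain, retina and peripheral nerve (ENSMUSG00000026840, chr2:31887291-31946539), was at 3.66, 2.76, 2.92 and 2.32 in hypoxia and 4.20, 3.60, 4.07 and 3.78 in normoxia. Only hypoxia sample 1 reached into the normoxia range. The rise was 2.00-fold (1.00 ± 0.235, adjusted p = 0.0063), the highest change among the 35 genes, and 1.25 on the log2 scale without hypoxia sample 1. The epithelial chain Lamb3 did not pass (0.17, adjusted p = 0.68).

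Levels of different chains were then compared per kilobase of exon, as shares within each chain family. These shares do not depend on how the samples were scaled, and they carry no test. Among the laminin alpha chains, Lama4 made up 72.0% ± 1.85 (SD, n = 4) in hypoxia and 81.8% ± 1.29 in normoxia, while Lama5 went from 14.8% ± 2.73 to 9.30% ± 0.572, Lama2 from 6.23% to 4.39% and Lama1 from 6.41% to 4.00%. The sum over the alpha chains was 15 CPM per kilobase in hypoxia and 14.9 in normoxia. Lamc1 took 94.5% ± 2.02 of the gamma chains in hypoxia and 88.4% ± 2.28 in normoxia, with Lamc3 at 4.59% ± 1.86 and 10.6% ± 1.97. The transcripts for laminin chains in hypoxia were thus more mixed in the alpha position and less mixed in the gamma position. Lamb2 took 70.7% ± 2.92 of the beta chains in hypoxia and 75.4% ± 1.22 in normoxia, and Lamb1 most of the rest.

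In the integrins, Itgb1 took 63.4% ± 3.18 of the beta chains in hypoxia and 71.6% ± 2.18 in normoxia, and Itgb5 33.1% ± 2.39 and 25.3% ± 1.39. Itgb2 held 2.81% and 2.52%, so that leukocyte beta chains were a small share. Itga11 took 48.4% of the alpha chains in hypoxia and 55.0% in normoxia, Itga5 16.4% and 15.7%, and Itgav 16.3% ± 1.3 and 11.9% ± 0.448. The exon length used matters for these values: per longest transcript Lama4 took 81.6% and 88.4%, Lamb2 60.4% and 66.0% and Itga11 41.7% and 48.2%, each again higher in normoxia. By that length Itgav (20.7% and 15.5%) was ahead of Itga5 (15.3% and 14.9%).

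**Figure D3:**
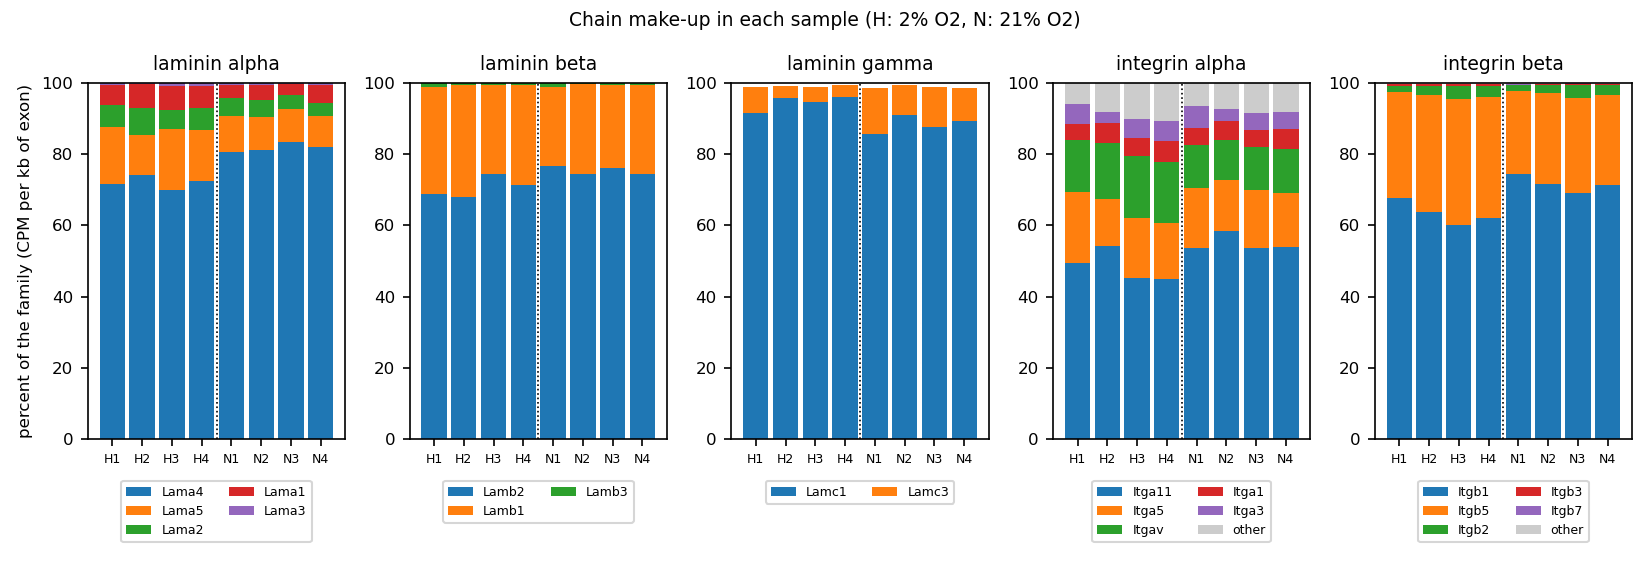
Share of each chain in its family (percent of the summed CPM per kilobase of exon) in hypoxia samples H1 to H4 and normoxia samples N1 to N4, parted by a dotted line; where a bar ends under 100%, chains not shown hold the rest. Lama4 (72.0% and 81.8% on average) and Itgb1 (63.4% and 71.6%) fill more of their families at 21% oxygen, and Lamc3 rises from 4.59% to 10.6% of the gamma chains.

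The DNA before the start site is shown for 3 genes that changed, because the RefSeq promoter windows (GRCm38.p6, 250 bases before to 50 after the start) allow a look at hypoxia response cores in them. Capitals mark the GC box GGGCGG or its reverse complement and, in Lamb1, the hypoxia core GCGTG read on the opposite strand. All lines run 5′ to 3′ on the strand of the gene. Itgb1 covers chr8:128685404-128685653 (plus strand), Lamb1 chr12:31265043-31265233 (plus strand) and Lama5 chr2:180225860-180226109 (minus strand).
Itgb1: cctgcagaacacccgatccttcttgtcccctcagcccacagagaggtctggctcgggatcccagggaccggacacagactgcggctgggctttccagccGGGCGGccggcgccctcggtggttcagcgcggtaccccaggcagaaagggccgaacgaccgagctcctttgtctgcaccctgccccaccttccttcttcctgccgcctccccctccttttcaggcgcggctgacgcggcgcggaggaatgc
Lamb1: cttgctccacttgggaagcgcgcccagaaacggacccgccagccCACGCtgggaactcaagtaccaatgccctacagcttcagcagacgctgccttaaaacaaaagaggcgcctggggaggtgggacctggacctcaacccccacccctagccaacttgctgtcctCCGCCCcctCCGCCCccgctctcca
Lama5: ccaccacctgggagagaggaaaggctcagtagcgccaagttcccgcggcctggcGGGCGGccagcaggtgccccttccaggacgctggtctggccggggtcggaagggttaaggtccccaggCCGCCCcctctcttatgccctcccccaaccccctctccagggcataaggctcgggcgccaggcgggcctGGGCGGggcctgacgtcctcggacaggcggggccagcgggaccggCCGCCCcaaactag

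The Lamb1 core lies 206 bases before the RefSeq start, and the Itgb1 and Lama5 windows hold none. Windows were found for 25 of the 38 genes searched, 28 windows in all, and the gene whose values are not reported here was not among those searched. On both strands, either form of the core (ACGTG or GCGTG) occurred in 7 of the 28 windows, against 43.8% of all 32851 promoters, and ACGTG in 1 of 28 against 19.6%. The core was in 1 of 5 lower genes with a window, 0 of 2 higher genes and 6 of 16 genes that did not pass. GGGCGG was in 13 of 28 windows (35.7% of all promoters), the AP-1 site TGANTCA in 3 (7.81%) and TATAAA in 0 (13.6%). These motifs can overlap with others, and a match or its absence describes only these letters.

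Genes that work with integrins and laminins were read from 5 lists. Of 80 listed genes 72 were tested and 37 changed, 14 higher and 23 lower in normoxia, beside 18% higher and 16.5% lower among all genes. With the block 57 did, 21 higher and 36 lower, where 46% of all genes passed. The basement membrane list had 9 of 13 tested genes changed, 8 of them lower (34.6% and 16.5% of all genes). With GC and length correction 5 of the 13 passed, 1 higher and 4 lower, where 30% of all genes did. Hspg2 (perlecan) fell by 0.87 on the log2 scale (adjusted p = 0.00013), Col18a1 by 0.77 (0.0017) and Nid1 (nidogen-1, which joins laminin to collagen IV) by 0.67 (0.00046). Col4a6 had a change of -0.86 at 1 to 12 reads (adjusted p = 0.046, and 0.069 with block and GC correction).

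Perlecan, the largest change of the list, had log2 CPM of 11.39, 11.33, 11.65 and 11.19 in hypoxia and 10.46, 10.58, 10.40 and 10.67 in normoxia. The groups were far apart. With GC and length correction its change was -0.59. The median change of the basement membrane list was -0.46, and -0.29 with that correction. Ntn4, a netrin that binds laminin gamma chains, rose (0.52, adjusted p = 0.0031). With the block Col4a5 (0.27) and Smoc2 (0.28) were higher as well (adjusted p = 0.0099 and 0.0016), and these 3 are named after their values were seen.

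Of 12 other laminin receptor genes 5 changed, 3 higher and 2 lower, a share near the 34.6% of all genes. Dag1, dystroglycan, had log2 CPM of 8.62, 8.69, 8.67 and 8.68 in hypoxia and 8.01, 8.04, 8.02 and 8.13 in normoxia, with the samples of each group close together and no overlap (-0.61 ± 0.0519, adjusted p = 3.6e-05). Sgcb, a sarcoglycan of the same complex, rose by 0.52 (adjusted p = 0.00084). The syndecans, heparan sulfate co-receptors, split: Sdc4 rose by 0.51 (0.0044) and Sdc3 fell by 0.34 (0.0014).

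Among 14 other integrin ligands 5 changed, 2 higher and 3 lower, again near 34.6%, and 12 passed with the block, where 46% of all genes did. Fn1, fibronectin, had a change of -0.59 (adjusted p = 0.0078), Tnc, tenascin-C, -0.80 (8.2e-05) and Col1a1 -0.74 (0.0038). Spp1, osteopontin, an alphav ligand, rose by 0.54 (0.0024).

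Adaptors that tie integrins to actin changed in both directions, 6 of 24 higher and 9 lower (18% and 16.5% of all genes). The 4 named by the size of their change all fell: Lims2 (PINCH-2, -0.56), Tgfb1i1 (Hic-5, -0.54), Tns1 (tensin-1, -0.53) and Git1 (-0.49), with adjusted p between 0.0001 and 0.0018. Those that rose, named after their values were seen, were Ptk2b (0.47), the talin Tln2 (0.47), the kindlin Fermt2 (0.43), focal adhesion kinase Ptk2 (0.36), Lims1 (0.27) and Actn4 (0.25). Tln1, another talin named on the same ground, fell by 0.23 (adjusted p = 0.021), and this did not hold with block and GC correction (0.21). The rise of Lims1 was 0.05 under GC correction and did not pass (adjusted p = 0.47). Of 9 genes for proteins that bind or restrain integrins 3 changed, near the 34.6% of all genes. Krit1 rose by 0.48 (adjusted p = 0.00059) and Nisch, nischarin, fell by 0.35 (0.00052). GC correction made several of the changes named from these lists over 1.5 times smaller, with values of -0.18 for Sdc3, 0.34 for Sgcb, -0.36 for Lims2, -0.32 for Git1, 0.24 for Krit1 and -0.20 for Nisch, all of which passed.

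**Figure D4:**
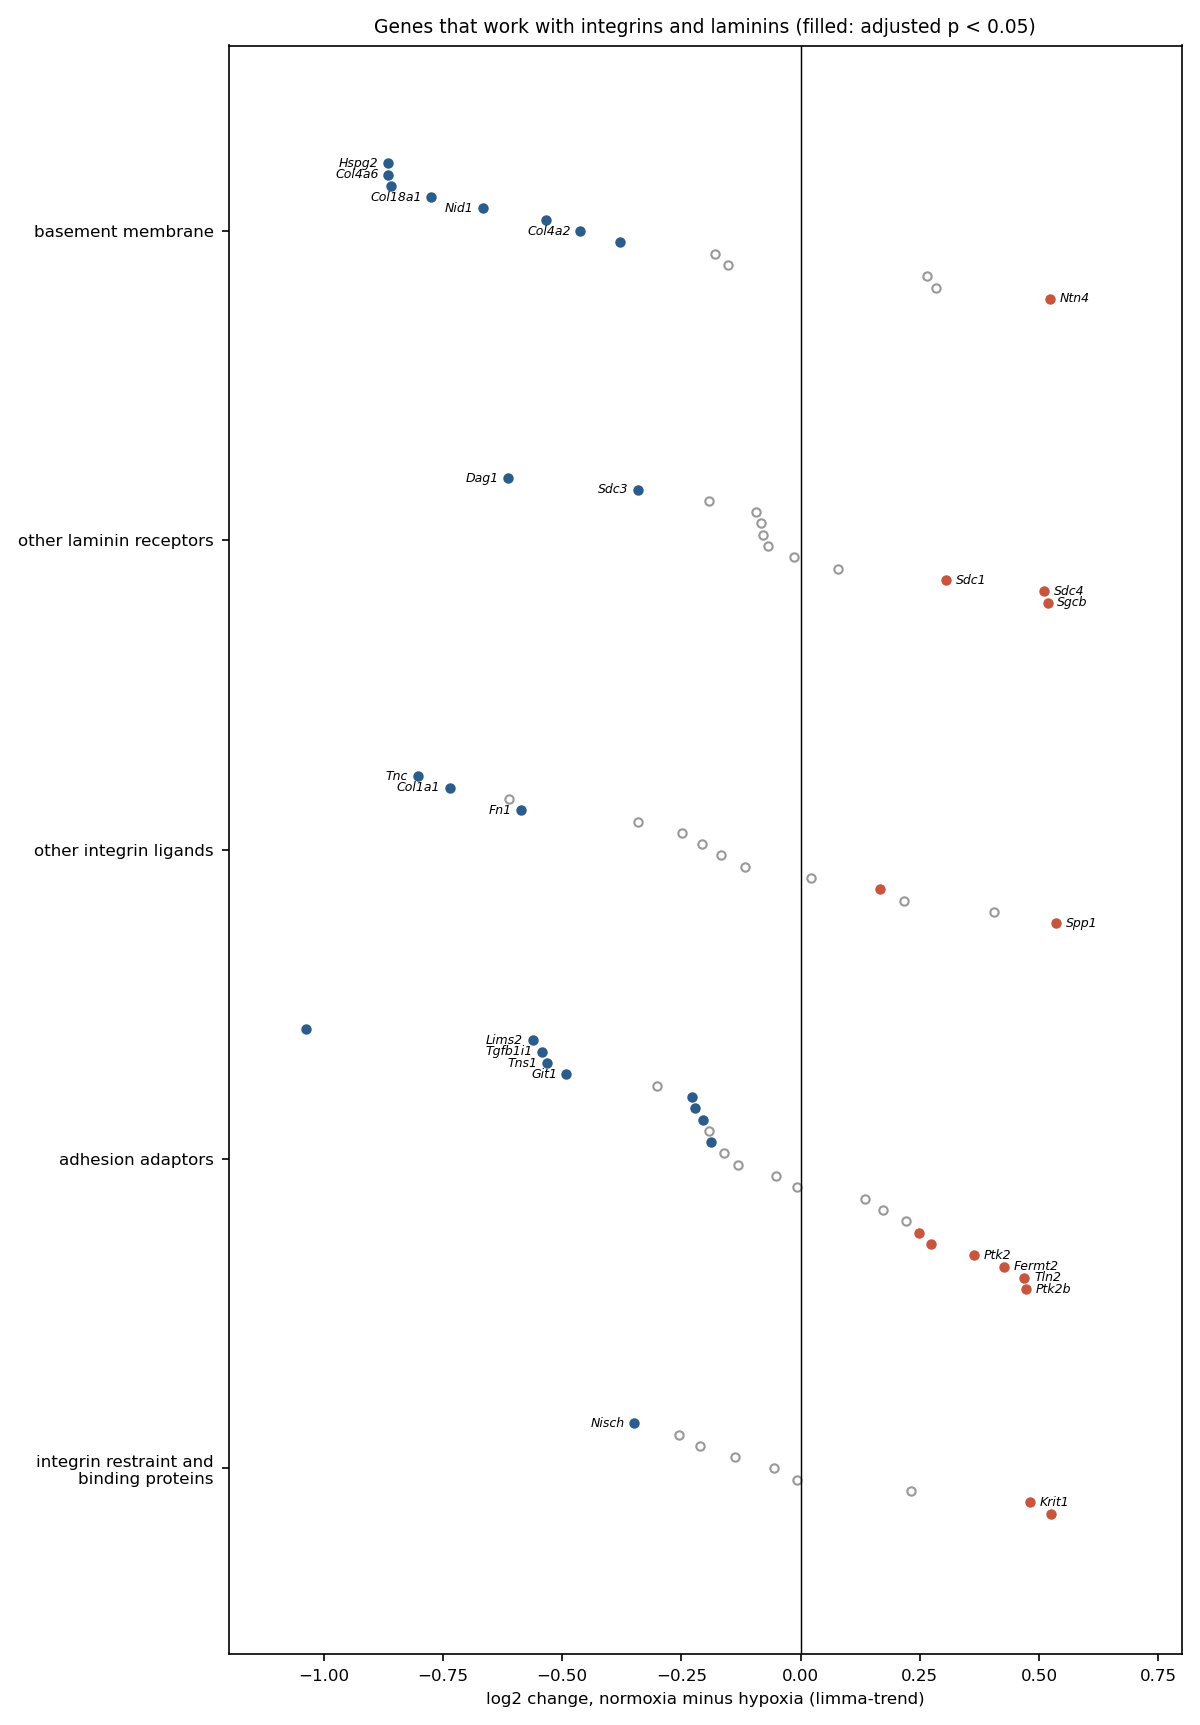
Log2 change (normoxia minus hypoxia) of the 72 tested genes on the 5 lists, filled where the adjusted p was under 0.05 and named where the groups also did not overlap and the change was at least 0.3 in size. Filled points of the basement membrane list lie left of 0 apart from that of Ntn4, whereas adaptors lie on both sides.

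GC content moved with the oxygen comparison over the whole transcriptome, with a Spearman rho of -0.39 between log2 change and transcript GC over 14353 genes, which are not independent replicates. Over the 35 integrin and laminin genes rho was -0.081. The median GC was 44.8% in the 3 that rose and 53.1% in the 10 that fell. With GC and length correction 14 of the 35 passed, 6 higher and 8 lower, where 30% of all genes did (15.5% higher and 14.5% lower). Its part in the single values was not tested beyond this correction. Markers of smooth muscle cells and pericytes were at a summed 266 to 422 CPM in hypoxia and 228 to 312 CPM in normoxia, 2 of 4 being lower (Myh11 at a log2 change of -1.03 and Cnn1 at -0.41). With the block Cspg4 (-0.24) was also lower and Rgs5 (0.71) higher. Their part in the values of the laminin genes was not tested.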

How the data were processed

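RNA of 8 MSC samples, 4 at 2% and 4 at 21% oxygen, was sequenced as single-end NEBNext Ultra II libraries. The authors deposited raw read counts per Ensembl gene, made with zUMIs, STAR and featureCounts on mm10 with an Ensembl GRCm38 annotation. The settings for strand, introns and multi-mapped reads are not given in the sources used here, so reads of overlapping genes may be shared or lost. Totals of 12898291 to 25132141 counts per sample limit precision for rare genes, and p-values and limits rest on reads without molecular identifiers. Rows without a symbol held 0.00364% of counts and stayed in the fit.

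Genes were kept with filterByExpr (minimum count 5) in edgeR 4.0.16, which left 14369. Counts were scaled by TMM, turned into log2 CPM (prior count 3) and fitted with limma-trend in limma 3.58.1 (R 4.3.3), after the study's methods. P-values were adjusted by Benjamini-Hochberg over all tested genes. The alternatives were other scalings, filters and prior counts, edgeR's quasi-likelihood test, DESeq2 1.42.0, limma-voom, a replicate block, a spline correction for GC content and length with 5 degrees of freedom, and leaving out each sample. Deviations of same-numbered samples from their group means correlated at 0.47, 0.28, 0.25 and 0.17 (samples 1 to 4), so the numbers were taken to pair the samples. Exon lengths and positions came from GENCODE M21 (GRCm38). The fit was tested on simulated data.

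The members and lists were chosen with earlier results of these data known. Each tested gene of the families is described or counted, and the values of 1 gene are not reported here. In full are those with a call and an absolute log2 change of at least 0.5 and the 3 most abundant chains of each kind; of each other list, up to 4 genes with the greatest absolute change, a call and no overlap are named.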

Additional observations from a re-analysis of the deposited data

Results flagged for a closer look

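A sample stood apart from the other 3 of its group in 3 of 70 sets of 4 values searched, by Dixon's gap criterion for groups of 4, where chance gives about 3.5. Itga4 in hypoxia sample 1 was at a log2 CPM of 2.21, below the 3.35 to 3.56 of the other hypoxia samples. Without that sample the change of Itga4 was -0.59 (adjusted p = 0.017), beside -0.28 (0.44) with it. Itgb7 in normoxia sample 1 was at 2.27, above the 1.55 to 1.66 of the other normoxia samples. Lama5 in normoxia sample 2 was at 4.12, above the 3.95 to 3.96 of the others and still below every hypoxia sample.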

How the results depend on the processing

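Of the 13 calls, 8 (Itga10, Itgav, Itgb1, Itgb3, Lama1, Lama5, Lamc1 and Lamc3) held in all 19 alternatives. Itgb4 held in all but GC and length correction, Lamb1 in all but total-count scaling, and Itgal, Lama2 and Itgb8 depended on several choices. The number of integrin and laminin genes called was 21 with the replicate block and 23 with block and GC and length correction together, against 13, and 10 to 20 when each sample was left out, the highest without hypoxia sample 1. In the other alternatives it was 11 to 14. The replicate block raised the called genes of the partner lists from 37 to 57, and it ended none of the 13 calls.

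Changes near 0 turned sign: Itga1 (-0.0672) and Itga2 (-0.128) under GC correction with or without the block, Itgb5 (0.0185) and Lama3 (0.0138) likewise, Lama3 (0.0155) with total counts, Itga2 in edgeR (-0.00381) and DESeq2 (-0.0244), and Lamb2 with DESeq2 size factors (-0.0015) and in DESeq2 (-0.00286). Leaving out each sample gave ranges that crossed 0 for Itga2 (-0.138 to 0.313), Itga3 (-0.0103 to 0.232), Itga5 (-0.0264 to 0.208), Itga9 (-0.0795 to 0.294), Itgb2 (-0.128 to 0.258), Lama3 (-0.272 to 0.115), Lamb2 (-0.0207 to 0.0371) and Lamb3 (-0.0732 to 0.368). Per longest transcript, chosen after seeing the data, shares moved for Lama4 (81.6% and 88.4%), Lamb2 (60.4% and 66.0%) and Itga11 (41.7% and 48.2%). Where signs turned or calls were lost, the cause was not tested. Genes under 100 reads, such as Itga10 and Itgb8, rest on few counts.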
